A study of Mus musculus with 26 samples.

Results

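The water barrier of the skin depends on a small set of enzymes and carriers that make ceramides with very long acyl chains, and 10 of their genes were followed here: Cers3, Elovl4, Cyp4f39, Pnpla1, Abhd5, Ugcg, Abca12, Smpd1, Alox12b and Aloxe3. They were chosen by name for their known place in this pathway, with earlier results of these data known. All 10 were among the 57010 gene identifiers of the count table and all 10 were among the 20167 genes that passed the filter on low counts. RNA was sequenced from 4 mm punch biopsies of the right ear of 26 female Balb/cAnNRj mice, 1 library per mouse, to ask how MC903 dermatitis and its topical treatment change gene expression. MC903, also called calcipotriol, is an analog of vitamin D, and mouse skin to which it is applied becomes inflamed much as in atopic dermatitis. The vehicle group (n = 6) had ethanol on the ear. The other groups had 1 nmol of MC903 in ethanol per day for 6 days, together with drug-vehicle (the MC903 group, n = 8), with 1 mg of RGRN-305 per day (n = 8) or with 20 nmol of dexamethasone per day (n = 4). RGRN-305 inhibits the chaperone HSP90, and dexamethasone is a glucocorticoid. The mice were 8 weeks old at purchase, the drugs or their vehicle were applied daily until the biopsy on day 9, and no group had a drug without MC903.

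In the upper layers of the epidermis, fatty acids are elongated, hydroxylated at their far end, joined to a sphingoid base and esterified with linoleate, which gives acylceramides. These are glucosylated, loaded into lamellar bodies and secreted, and outside the cell glucose or phosphocholine is removed again to free the ceramides. Lipoxygenases then oxidise the linoleate, so that part of the ceramides can be bound to the proteins of the cornified envelope. Loss of many of these genes in humans or mice gives ichthyosis or a lethal failure of the barrier.

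Total counts per library ranged from 13695023 to 35130972, and the members had from 796 to 72838 counts in a library. Levels are given as CPM, the count of a gene relative to the total count of its library, with library sizes scaled by TMM, and changes as log2 fold changes of the edgeR quasi-likelihood fit to all 26 libraries. A gene was called changed at an adjusted p below 0.05, with Benjamini-Hochberg adjustment over all genes tested. Keratinocyte genes were abundant in every group, the summed level of 14 suprabasal and granular genes being between 44050 and 116000 CPM. In whole biopsies fewer cells of a type and less RNA per cell cannot be told apart. The labels give a number per mouse and nothing on cages or processing batches. The p-values set differences of group means against the spread between mice within groups.

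Across the members, MC903 mice differed from vehicle mice most in Ugcg, Cers3 and Alox12b, which all rose, and which RGRN-305 lowered again. Dexamethasone gave another pattern against MC903: Alox12b, Abca12, Aloxe3 and Pnpla1 were higher, Ugcg and Cers3 did not pass in this comparison, and Elovl4 was lower. The levels of every member in each mouse show this, and the plot of fold changes sets the comparisons side by side.

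**Figure D1:**
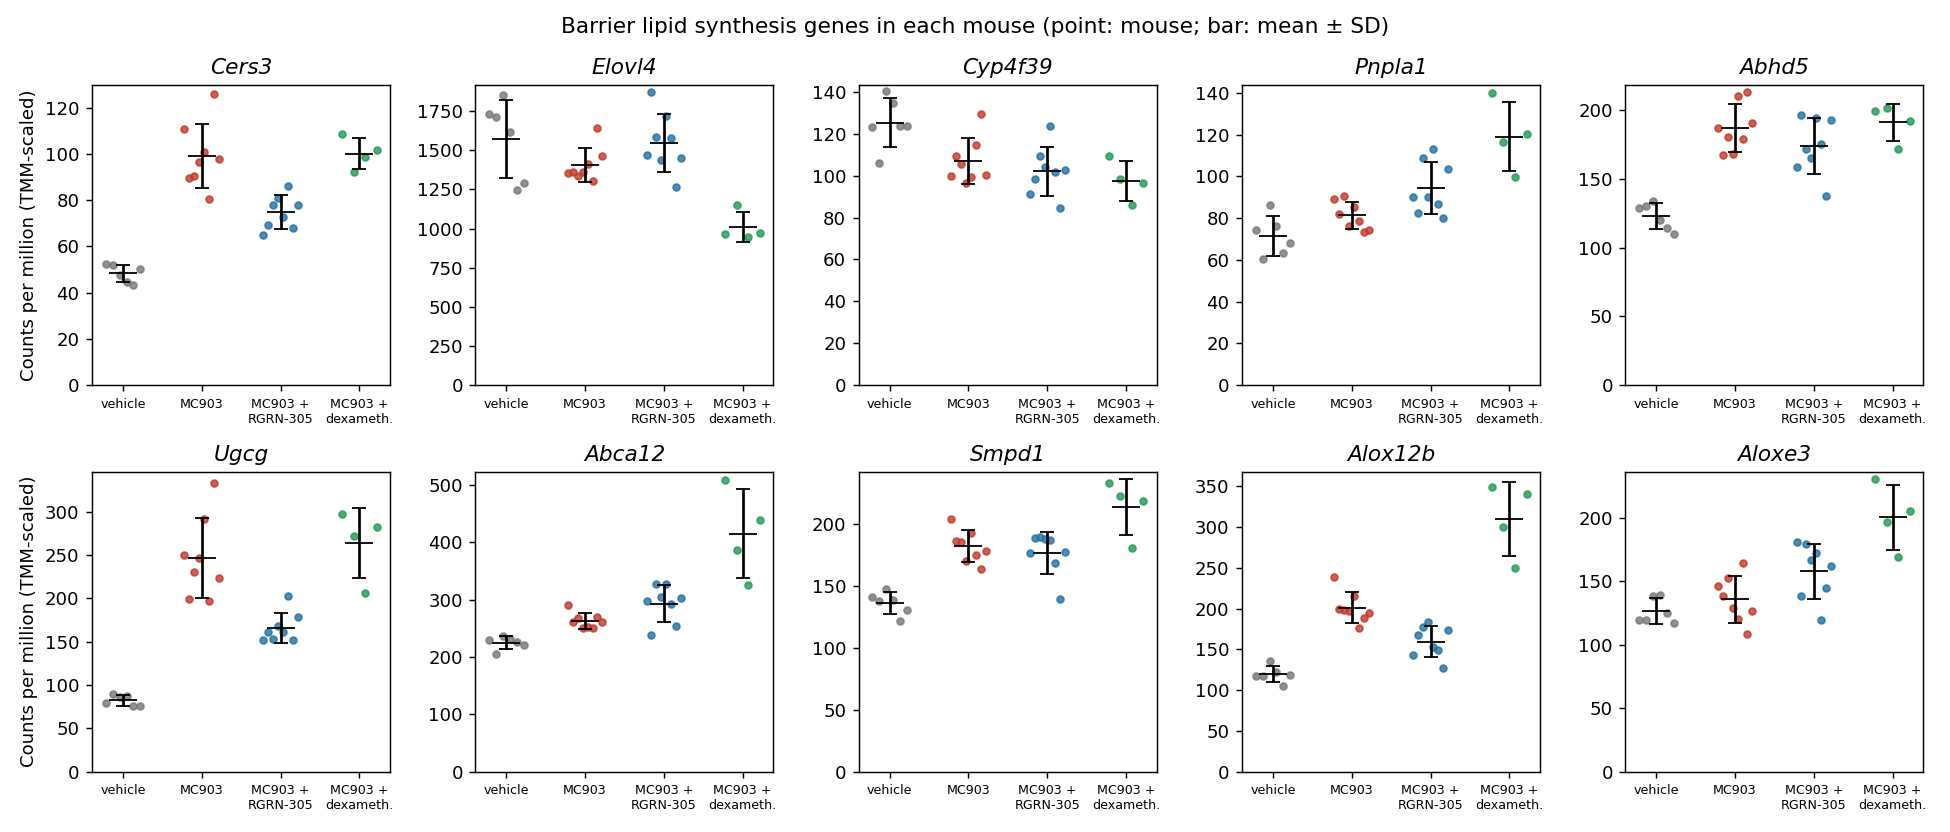
CPM (y axis, TMM-scaled) of the 10 genes in each mouse, by group (x axis). Each point is a mouse and the bars are mean ± SD. Ugcg, Cers3 and Alox12b are lowest in the vehicle mice, the RGRN-305 mice lying on average between the vehicle and MC903 mice, and Elovl4 is lowest in the dexamethasone mice, at 944 to 1153 CPM.

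**Figure D2:**
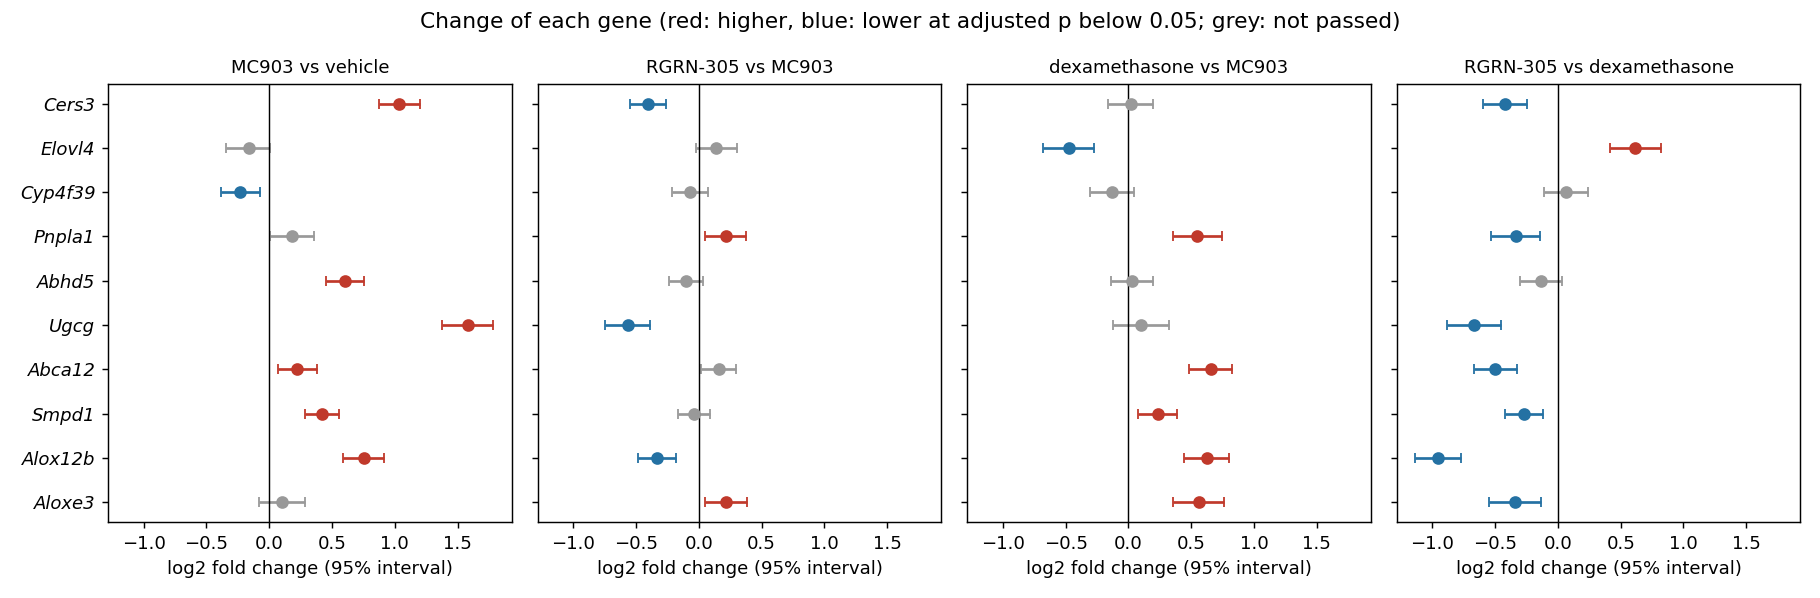
Log2 fold change (x axis) of the 10 genes (y axis) in 4 comparisons, with 95% confidence intervals of the fit. Red points were higher and blue points lower at an adjusted p below 0.05, and grey points did not pass. With TMM scaling, 6 of the 10 genes were higher in MC903 than in vehicle mice (34.5% of all genes). With RGRN-305, 7 were lower than with dexamethasone (17.8% of all genes), a count that depended on the scaling.

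The sequence before the start of transcription is shown for 4 members. These are the 3 genes that rose with MC903 and fell with RGRN-305, and Aloxe3. Aloxe3 lies next to Alox12b on chromosome 11 and did not rise with MC903 by the test. The 3 genes differed under dexamethasone, where Alox12b rose against MC903 and Cers3 and Ugcg did not pass. Each run is the 250 bases before the start of the canonical transcript, from 5′ to 3′ on the strand of the gene, taken from the GRCm39 genome with the GENCODE annotation. All 4 genes lie on the plus strand. Capitals mark matches, on either strand, to any of 8 short motifs. The AP-1 site was searched as TGANTCA and the heat shock element as GAANNTTC. The site of Grainyhead factors was AACCGGTT and the monomer site of nuclear receptors AGGTCA. The monomer site of the glucocorticoid receptor was AGAACA and the GC box was GGGCGG. The CCAAT box was searched by the letters of its name and the TATA box as TATAAA.
Cers3, chr7:66413667-66413916: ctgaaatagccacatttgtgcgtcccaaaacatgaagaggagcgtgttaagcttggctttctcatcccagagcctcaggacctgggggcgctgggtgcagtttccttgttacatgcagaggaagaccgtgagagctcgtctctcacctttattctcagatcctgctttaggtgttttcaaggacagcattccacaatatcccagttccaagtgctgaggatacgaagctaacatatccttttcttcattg
Ugcg, chr4:59188799-59189048: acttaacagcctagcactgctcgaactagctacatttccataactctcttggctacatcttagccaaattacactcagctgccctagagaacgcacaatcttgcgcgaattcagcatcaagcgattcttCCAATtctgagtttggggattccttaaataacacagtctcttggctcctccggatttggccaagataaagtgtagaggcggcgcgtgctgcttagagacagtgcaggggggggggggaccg
Alox12b, chr11:69047565-69047814: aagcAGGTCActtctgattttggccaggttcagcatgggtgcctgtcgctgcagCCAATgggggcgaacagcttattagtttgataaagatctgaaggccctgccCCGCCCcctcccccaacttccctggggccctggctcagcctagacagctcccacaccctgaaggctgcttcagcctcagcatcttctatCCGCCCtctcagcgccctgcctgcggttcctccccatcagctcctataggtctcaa
Aloxe3, chr11:69016472-69016721: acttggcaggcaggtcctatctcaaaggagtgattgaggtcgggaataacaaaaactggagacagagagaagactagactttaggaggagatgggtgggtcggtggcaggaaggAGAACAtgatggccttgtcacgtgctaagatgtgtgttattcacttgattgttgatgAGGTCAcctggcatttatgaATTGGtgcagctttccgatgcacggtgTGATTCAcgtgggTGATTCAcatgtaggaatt
In the Cers3 window none of the 8 motifs was found. The Ugcg window held a CCAAT box only, 121 to 117 bases before the start. The Alox12b window held a nuclear receptor monomer site, a CCAAT box and a pair of GC boxes, and the Aloxe3 window held a pair of AP-1 sites at 32 to 26 and 19 to 13 bases before the start, a nuclear receptor monomer site, a glucocorticoid receptor monomer site and a CCAAT box. The last 14 bases of the Ugcg window and the last 11 of the Alox12b window are exon in another transcript of the same gene. The Cers3 and Alox12b windows lie inside the annotated genes, which start at 66393252 and 69041472. The sequence before those starts was not searched.

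Among the promoters of all 10 members, an AP-1 site was found only before Aloxe3 and a heat shock element only before Pnpla1, and these motifs stood in 6.19% and 6.36% of 21651 promoters of protein-coding genes. The nuclear receptor monomer site was in 4 members (Abhd5, Smpd1, Alox12b and Aloxe3) and in 13.1% of all promoters. The glucocorticoid receptor monomer site was in 2 (Elovl4 and Aloxe3) and in 14.3% of all. CCAAT boxes stood before 5 members and 36.5% of all genes, and GC boxes before 3 members and 36.4% of all. No member had a TATA box or a Grainyhead site, which were in 11.9% and 0.102% of all promoters. The windows of the 3 genes that fell with RGRN-305 shared no motif of the 8. No match overlapped another in these windows. These are matches of letters, and binding was not measured.

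Elovl4, on chromosome 9 (83660744 to 83688430, minus strand), elongates fatty acids to the very long chains that acylceramides need. It had 1245 to 1853 CPM in vehicle mice (median 1665) and 1306 to 1645 in MC903 mice (median 1362). Its level with RGRN-305 was 1264 to 1870 CPM (median 1523), and the 4 dexamethasone mice had 968, 1153, 944 and 970 CPM. The dexamethasone mice thus lay below every mouse of the other groups, and the first 3 groups overlapped. Dexamethasone lowered Elovl4 by 0.48 ± 0.104 (log2, SE) against MC903 (adjusted p = 0.000441), and the level with RGRN-305 was 1.53-fold higher than with dexamethasone (adjusted p = 3.72e-05). MC903 against vehicle gave a log2 fold change of -0.165 ± 0.090 (adjusted p = 0.101), and RGRN-305 against MC903 one of 0.14 ± 0.083 (adjusted p = 0.196). The MC903 comparison passed the threshold when vehicle mouse 5, vehicle mouse 6 or MC903 mouse 7 was left out (adjusted p = 0.0177, 0.025 and 0.0498).

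Elovl4 and the sebaceous gland list were both lower with dexamethasone than with MC903. The summed level of its 12 genes was 6661 to 8255 CPM in vehicle and 2550 to 3341 in MC903 mice, and 3791 to 5119 with RGRN-305 and 906.5 to 1429 with dexamethasone, with no gene at 0 in a group. Scd1 was the largest part, with means of 5210 CPM for vehicle and 1857 CPM for MC903 mice. Of the 12 genes, 10 were lower and 0 higher with MC903 than with vehicle (35.7% and 34.5% of all genes). The 2 that did not pass were Awat1 and Awat2 (adjusted p = 0.591 and 0.303). RGRN-305 raised 7 and lowered 0 against MC903 (18.6% and 19.4% of all genes). Dexamethasone lowered 9 and raised 2 against MC903 (23.3% and 23% of all genes). Of these 3 comparisons, Elovl4 itself passed only for dexamethasone against MC903. The list's part in the Elovl4 result was not tested.

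Cers3, on chromosome 7 (66393252 to 66473439), encodes the ceramide synthase that joins these fatty acids to a sphingoid base. Vehicle mice had 43.3 to 52.3 CPM (median 48.9), MC903 mice 80.5 to 125.8 (median 97.3) and RGRN-305 mice 64.8 to 86.3 (median 75.4). The dexamethasone mice had 108.6, 92.2, 98.5 and 101.6 CPM, inside the range of the MC903 mice. Every mouse given MC903, with or without a drug, was above every vehicle mouse, and the RGRN-305 mice overlapped the MC903 mice at their upper end only. Cers3 rose 2.05-fold with MC903 (log2 1.04 ± 0.083, adjusted p = 1.26e-11) and RGRN-305 mice were 1.32-fold below MC903 mice (adjusted p = 8.31e-05). It was still 1.55-fold above vehicle with RGRN-305 (adjusted p = 2.12e-07). With dexamethasone the difference from MC903 was 0.02 on the log2 scale, with a 95% interval of -0.162 to 0.195 (adjusted p = 0.897), and RGRN-305 mice were lower than dexamethasone mice by 0.42 on the log2 scale (adjusted p = 0.000549).

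Cyp4f39, on chromosome 17 (32671694 to 32712396), is the mouse counterpart of human CYP4F22, which hydroxylates the far end of the long fatty acids. Its level was 106 to 140.5 CPM in vehicle mice (median 123.7), 96.6 to 129.5 in MC903 mice (median 102.9) and 84.4 to 123.8 in RGRN-305 mice (median 102.2). The dexamethasone mice had 109.3, 98.2, 86.0 and 96.6 CPM, and all groups overlapped. It was the only member that fell with MC903, by 0.23 ± 0.079 on the log2 scale (adjusted p = 0.0107). The log2 fold change was -0.30 for RGRN-305 against vehicle (adjusted p = 0.00186) and -0.36 for dexamethasone against vehicle (adjusted p = 0.00197). Neither drug differed from MC903 by the test (adjusted p = 0.502 for RGRN-305 and 0.24 for dexamethasone).

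Pnpla1, on chromosome 17 (29077385 to 29109283), transfers linoleate onto the hydroxylated ceramide. Its level was 60.6 to 86.5 CPM in vehicle mice (median 71.3), 73.3 to 90.8 in MC903 mice (median 80.5) and 80.1 to 113.2 in RGRN-305 mice (median 90.2), and the dexamethasone mice had 139.9, 116.3, 99.9 and 120.2 CPM. The dexamethasone mice were all above the MC903 mice, and the first 3 groups overlapped one another. Pnpla1 rose by 0.55 ± 0.099 (log2) with dexamethasone against MC903 (adjusted p = 4.51e-05). The rise with RGRN-305 against MC903 was 0.21 ± 0.082 (adjusted p = 0.04), and that of MC903 against vehicle, 0.18 ± 0.089, did not pass (adjusted p = 0.0682), but passed in a fit of those 2 groups only and with DESeq2 size factors (adjusted p = 0.033 and 0.0461). An antisense RNA, Pnpla1os, overlaps the gene by 1098 bases and had 0.0868% of its count.

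Abhd5, on chromosome 9 (122180621 to 122222936), encodes a co-activator of lipases that works with Pnpla1 in acylceramide synthesis and with Pnpla2 in the breakdown of triglycerides. It had 110.2 to 134.1 CPM in vehicle and 167.3 to 213.2 CPM in MC903 mice, which did not overlap, and the rise was 1.52-fold (log2 0.61 ± 0.076, adjusted p = 5.72e-08). With libraries scaled to 10 keratinocyte genes instead, this call was lost (log2 0.126, adjusted p = 0.201). RGRN-305 mice were at 137.6 to 196.7 CPM and dexamethasone mice at 199.4, 201.4, 172 and 191.8 CPM. Among the 3 groups with MC903 no comparison of Abhd5 passed: RGRN-305 against MC903 had a log2 fold change of -0.104 ± 0.070 (adjusted p = 0.254), and dexamethasone against MC903 one of 0.03 ± 0.085 (adjusted p = 0.781). The antisense gene A730085K08Rik overlaps Abhd5 and had 1.02% of its count.

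Ugcg, on chromosome 4 (59189035 to 59222845), encodes glucosylceramide synthase, which puts glucose on ceramides before they are packed. Its level was 75.5 to 89.3 CPM in vehicle mice (median 82.6), 197.2 to 333.1 in MC903 mice (median 238.3) and 151.6 to 202.8 in RGRN-305 mice (median 160.9). The dexamethasone mice had 297.2, 271.3, 205.7 and 282 CPM, each above the highest RGRN-305 mouse. Ugcg had the largest change of the 10 genes, a 2.99-fold rise with MC903 (log2 1.58 ± 0.105, adjusted p = 4.02e-13). Alone of the 10 it passed a limit of 1.5 on the log2 scale. For MC903 against vehicle, 15% of all genes passed that limit in either direction. RGRN-305 lowered it by 0.57 ± 0.093 (log2) against MC903 (adjusted p = 1.94e-05), to 2.02 times the vehicle level (adjusted p = 3.09e-09). Dexamethasone mice differed from MC903 mice by 0.10 ± 0.113 (adjusted p = 0.483), and RGRN-305 mice were 1.59-fold below dexamethasone mice (adjusted p = 2.79e-05).

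Abca12, on chromosome 1 (71281435 to 71454069, minus strand), carries glucosylceramides into lamellar bodies. It was at 206.2 to 235.9 CPM in vehicle and at 250 to 291.6 CPM in MC903 mice, groups that did not overlap, although the rise was only 1.17-fold (log2 0.22 ± 0.079, adjusted p = 0.0133). Without vehicle mouse 2, one of the 2 libraries of lowest depth, that call was lost (adjusted p = 0.0504). With libraries scaled to 10 keratinocyte genes Abca12 was called in the opposite direction, lower with MC903 than with vehicle (log2 -0.26, adjusted p = 0.00108). With raw library sizes its mean was also lower with MC903 than with vehicle, at 248.9 against 255.4 CPM. RGRN-305 mice were at 238.7 to 328 CPM, which did not pass against MC903 (log2 0.16 ± 0.073, adjusted p = 0.0893). The dexamethasone mice had 508.2, 386.6, 325.6 and 438.6 CPM, all above the MC903 mice, a rise of 0.66 ± 0.087 (log2, adjusted p = 6.1e-07).

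Smpd1, on chromosome 7 (105203564 to 105207597), encodes acid sphingomyelinase, which frees ceramides from sphingomyelin. Its level was 121.5 to 147.4 CPM in vehicle, 163.5 to 204.1 in MC903 and 139.1 to 189.6 in RGRN-305 mice, and 233, 222.2, 180.5 and 218.3 CPM in the dexamethasone mice. The vehicle and MC903 mice did not overlap, and the rise with MC903 was 1.34-fold (log2 0.42 ± 0.070, adjusted p = 5.86e-06), a call that was lost, with the sign turned, when libraries were scaled to 10 keratinocyte genes (log2 -0.064, adjusted p = 0.442). RGRN-305 against MC903 gave -0.041 ± 0.064 (adjusted p = 0.655). The rise with dexamethasone against MC903, 0.23 ± 0.078 (adjusted p = 0.0162), was lost without dexamethasone mouse 1 or 2 (adjusted p = 0.0862 and 0.053).

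Alox12b and Aloxe3 encode the lipoxygenase and the hydroperoxide isomerase that act one after the other on the linoleate of acylceramides. They lie one behind the other on chromosome 11, Aloxe3 at 69016722 to 69039941 and Alox12b at 69041472 to 69060618, with 1530 bases and no whole gene between them. Alox12b had 105.4 to 136 CPM in vehicle mice (median 118.2), 176.4 to 238.8 in MC903 mice (median 198) and 127.7 to 184.1 in RGRN-305 mice (median 160.3). The dexamethasone mice had 349.1, 300.3, 249.6 and 340.6 CPM, above all other mice. Alox12b rose 1.68-fold with MC903 (log2 0.75 ± 0.085, adjusted p = 9.02e-09), was 1.26-fold lower in RGRN-305 mice (adjusted p = 0.00107) and rose a further 1.54-fold with dexamethasone (adjusted p = 3.68e-06). RGRN-305 and dexamethasone mice were 1.94-fold apart (adjusted p = 5.21e-09), the widest gap of any member between the drugs.

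Aloxe3 had 117.3 to 139.3 CPM in vehicle mice (median 122.5), 108.4 to 164.3 in MC903 mice (median 133.7) and 119.9 to 180.7 in RGRN-305 mice (median 164.5), and 230.4, 197.2, 168.9 and 205.4 CPM in the dexamethasone mice. Only the dexamethasone mice stood clear of the MC903 mice. The log2 fold change of MC903 against vehicle was 0.102 ± 0.093 (adjusted p = 0.334), and dexamethasone raised Aloxe3 over MC903 by 0.56 ± 0.103 (adjusted p = 6.43e-05). RGRN-305 against MC903 gave 0.22 ± 0.086 (adjusted p = 0.0459), the opposite sign to Alox12b, but this call was lost in 19 of 26 runs with 1 mouse left out.

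Ratios of CPM within a mouse do not depend on library size and are given as a description, with no test. Alox12b over Aloxe3 was 0.946 ± 0.0675 (SD, n = 6) in vehicle and 1.51 ± 0.236 (n = 8) in MC903 mice, and 1.02 ± 0.164 (n = 8) with RGRN-305 and 1.54 ± 0.0790 (n = 4) with dexamethasone. The ratio lay between 1.07 and 1.79 in the MC903 mice, above the vehicle maximum of 1.01, and the RGRN-305 mice spread from 0.792 to 1.25. Cers3 over Elovl4 was 0.0312 ± 0.00474 (SD, n = 6) in vehicle and 0.0704 ± 0.00645 (n = 8) in MC903 mice, and 0.0489 ± 0.00703 (n = 8) with RGRN-305 and 0.1003 ± 0.0141 (n = 4) with dexamethasone, so the mean of all 3 groups given MC903 was above that of the vehicle mice. Ugcg over Smpd1 was 0.558 to 0.650 in vehicle and 1.07 to 2.04 in MC903 mice, and 0.810 to 1.20 with RGRN-305 and 1.14 to 1.29 with dexamethasone. Pnpla1 over Abhd5 was lowest on average in MC903 mice, at 0.438 ± 0.0549 (SD, n = 8), against 0.583 ± 0.0670 (n = 6) in vehicle, 0.545 ± 0.0653 (n = 8) in RGRN-305 and 0.6215 ± 0.0578 (n = 4) in dexamethasone mice.

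**Figure D3:**
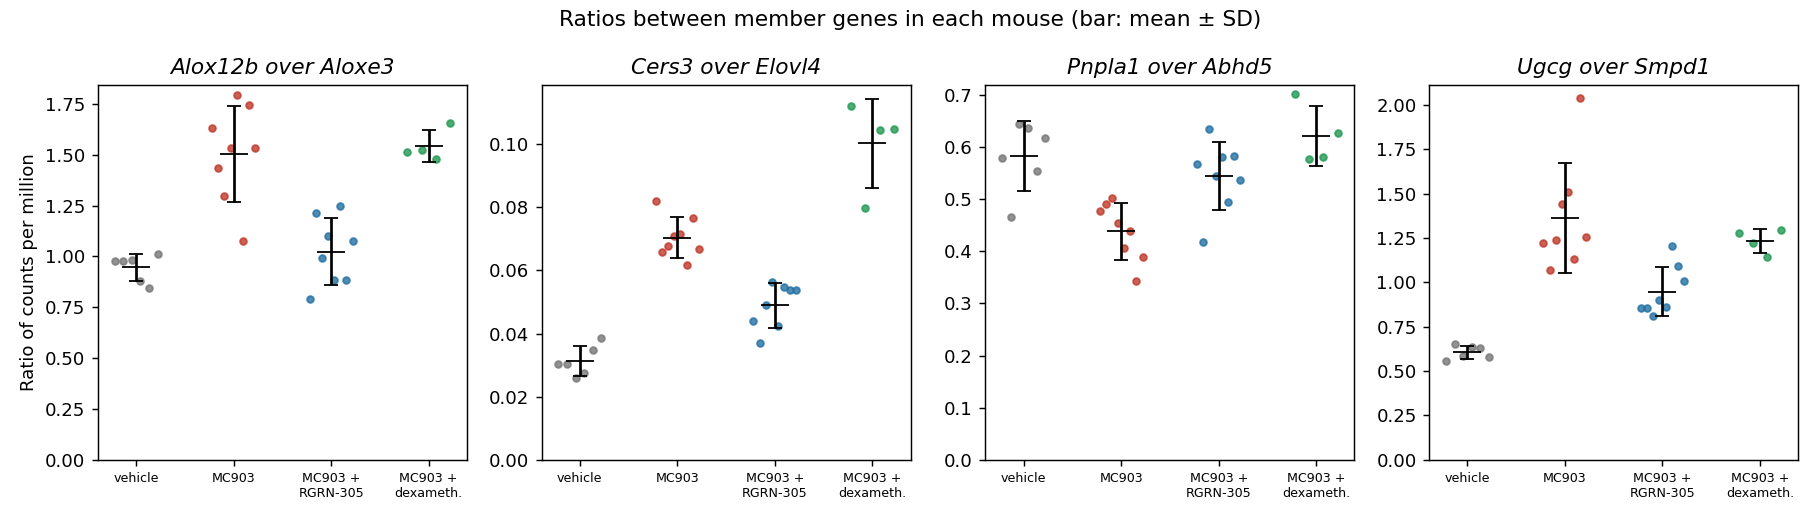
Ratio of the CPM of 2 member genes (y axis) in each mouse, by group (x axis), with mean ± SD. Alox12b over Aloxe3 averages 1.51 with MC903 and 1.54 with dexamethasone, against 0.946 with vehicle and 1.02 with RGRN-305.

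Counted together, 6 of the 10 genes were higher and 1 was lower in MC903 than in vehicle mice, where 34.5% of all genes tested were higher and 35.7% lower. The median log2 fold change was 0.32 over the 10 and -0.022 over all genes. The 6 that rose (Cers3, Abhd5, Ugcg, Abca12, Smpd1 and Alox12b) were also those whose MC903 mice all lay above the vehicle mice, which held for 20.9% of all genes, and 0 of the 10 lay wholly below, against 21.1% of all genes. For RGRN-305 against MC903, 2 members were higher (Pnpla1 and Aloxe3) and 3 lower (Cers3, Ugcg and Alox12b), against 18.6% and 19.4% of all genes. In this comparison the groups overlapped for each of the 10, while 3.57% of all genes lay wholly higher and 7.18% wholly lower.

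For dexamethasone against MC903, 5 members were higher and 1 lower, against 23% and 23.3% of all genes. The mice lay wholly apart for 4 members higher (Pnpla1, Abca12, Alox12b and Aloxe3), against 12.7% of all genes, and for Elovl4 lower, against 14%. RGRN-305 mice had 1 member higher and 7 lower than dexamethasone mice, where 17.6% and 17.8% of all genes were called, and the groups stood wholly apart for Elovl4 (higher, 9.09% of all genes) and for Cers3, Ugcg and Alox12b (lower, 9.47%). With libraries scaled to 10 keratinocyte genes the 1 and 7 became 2 higher and 2 lower, where 9243 of all genes were higher and 1189 lower. Against vehicle, 8 members were higher and 1 lower with RGRN-305 (30.3% and 29.5% of all genes). With dexamethasone 8 were higher and 2 lower (26.4% and 29.4%). With that scaling these counts became 2 and 2 with RGRN-305 and 4 and 2 with dexamethasone. Of all genes, 2309 were then higher and 10607 lower with RGRN-305, and 1498 and 14008 with dexamethasone. Without dexamethasone mouse 1 the calls of Pnpla1 and Aloxe3 between the drugs were lost (adjusted p = 0.0784 and 0.0753). Comparisons with MC903 or vehicle mice share those mice, and the calls within them are not independent of each other.

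The 2 rises with RGRN-305 were close to the threshold. Neither Pnpla1 nor Aloxe3 passed in DESeq2's Wald test (adjusted p = 0.0618 and 0.0666), without the filter on low counts, with DESeq2 size factors, or without the 2 libraries of lowest depth. The 3 falls with RGRN-305 passed in each of these and with every single mouse left out.

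Scaling changed more. Relative to the library, genes of keratinocytes themselves stood higher in MC903 than in vehicle mice: the geometric mean of 10 of them (Cdh1, Dsp, Jup, Perp, Pkp1, Pkp3, Ppl, Trp63, Krt5 and Krt14) had a median of 1393 CPM in vehicle and 1618 in MC903 mice, and of 1581 with RGRN-305 and 1806 with dexamethasone, in unscaled libraries. Of these 10 genes 9 belong to the list of 13 basal and junctional genes. In that list 9 were higher and 3 lower with MC903 than with vehicle (34.5% and 35.7% of all genes). The 3 lower ones, named after their values were seen, were Krt15 (log2 -1.64) and Col17a1 (log2 -1.035), which are not among the 10, and Ppl (log2 -0.55), which is, so the scaling rests on which keratinocyte genes are used. When libraries were scaled to these genes (the epidermal scale), the median of all genes moved by -0.484 for MC903 against vehicle, 0.138 for RGRN-305 against MC903, -0.187 for dexamethasone against MC903 and 0.326 between RGRN-305 and dexamethasone (log2). The share of higher genes among those called then went from 49.1% to 19.3%, from 49% to 72%, from 49.7% to 26.6% and from 49.7% to 88.6% in the same order.

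On that scale Cers3, Ugcg and Alox12b still rose with MC903 (log2 0.55, 1.10 and 0.27, adjusted p = 1.82e-07, 1.06e-10 and 0.00246) and still fell with RGRN-305 (log2 -0.27, -0.44 and -0.196, adjusted p = 0.00222, 0.000377 and 0.0247). The 5 others that passed against vehicle were lower: Elovl4, Cyp4f39, Pnpla1, Abca12 and Aloxe3, by log2 fold changes of -0.64, -0.71, -0.30, -0.26 and -0.38. Abca12 thus turned from higher to lower with the scaling (adjusted p = 0.00108), and the rises of Abhd5 and Smpd1 were lost (log2 0.126 and -0.064, adjusted p = 0.201 and 0.442). With dexamethasone against MC903, Pnpla1, Abca12, Alox12b and Aloxe3 were higher and Elovl4 lower on both scales. With RGRN-305 against MC903, 4 members were higher on the epidermal scale, Elovl4 (log2 0.28, adjusted p = 0.0189) and Abca12 (log2 0.29, adjusted p = 0.000484) among them.

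**Figure D4:**
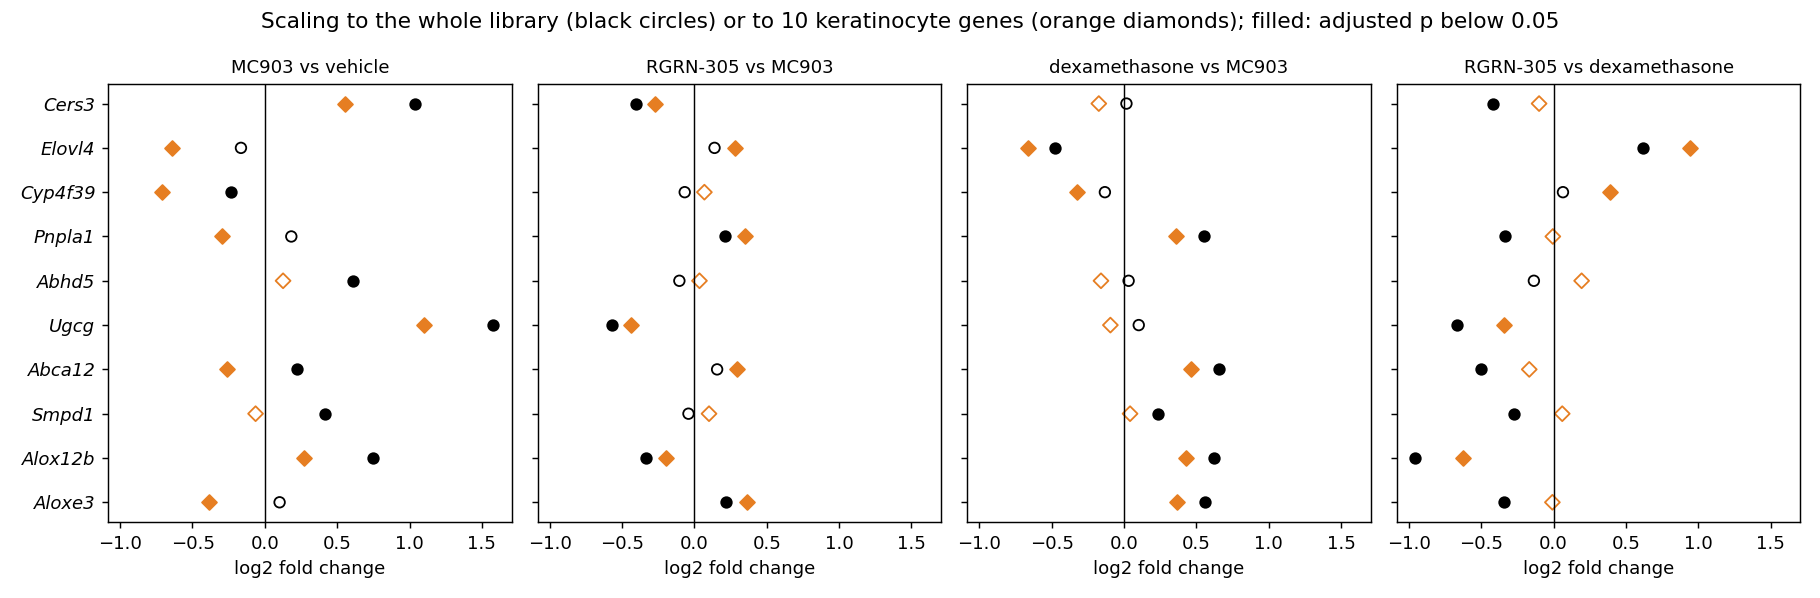
Log2 fold change (x axis) of the 10 genes (y axis) in 4 comparisons, with libraries scaled by TMM (black circles) or to 10 keratinocyte genes (orange diamonds). Filled symbols passed an adjusted p below 0.05. Cers3, Ugcg and Alox12b keep their side of 0 in MC903 against vehicle and RGRN-305 against MC903, and Abca12 goes from 0.22 to -0.26 in MC903 against vehicle.

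Marker lists of cell types differed between the groups too, and their part in the members' changes was not tested. The 14 suprabasal and granular genes summed to 44050 to 60360 CPM in vehicle and 53010 to 86730 in MC903 mice, and to 76140 to 103300 with RGRN-305 and 93720 to 116000 with dexamethasone. Krt10 and Krt2 were the largest parts, with means of 24790 and 20860 CPM in MC903 mice. With MC903, 7 of the 14 were higher and 3 lower (34.5% and 35.7% of all genes), from log2 -2.425 (Flg2) to 3.328 (Krt1). Against MC903, 9 were higher and 3 lower with RGRN-305 (18.6% and 19.4% of all genes). With dexamethasone they were 10 and 0 (23% and 23.3%). The summed level of 13 basal and junctional keratinocyte genes was 21360 to 23730 CPM in vehicle and 30140 to 35800 in MC903 mice, and 24510 to 30110 with RGRN-305 and 32400 to 35860 with dexamethasone. For 9 genes of stressed keratinocytes the sums were 301 to 416, 11370 to 34340, 1648 to 7815 and 7075 to 17370 CPM in the same order. Each of these 9 genes rose with MC903 and was lower in RGRN-305 than in MC903 mice. Sums of 8 macrophage and monocyte genes had medians of 283, 732, 410 and 356 CPM. The 8 T cell genes had medians of 5.79, 36.7, 14.3 and 4.88 CPM, and the 8 skeletal muscle genes of 3330, 462, 964 and 2064 CPM. The 6 neutrophil genes had medians of 16.1, 553.9, 66.1 and 54.5 CPM, but most of the sum in MC903 mice came from S100a8 and S100a9 (means 254 and 334 CPM), which are also in the list of stressed keratinocytes, and Ly6g did not pass the filter on low counts. Csf3r, a cytokine receptor of neutrophils, had means of 1.92 CPM in vehicle and 34.1 CPM in MC903 mice. The adipocyte genes had medians of 285, 156.5, 157.5 and 304 CPM. The largest part was Fabp4, with means of 85.2 CPM in MC903 and 86.2 in RGRN-305 mice. Of these 8 genes, 1 was higher and 7 lower with MC903 than with vehicle (34.5% and 35.7% of all genes). Against MC903, 5 were higher and 1 lower with RGRN-305 (median log2 fold change 0.756, 18.6% and 19.4% of all genes). With dexamethasone 8 were higher and 0 lower than with MC903 (23% and 23.3% of all genes). Cd8a was at 0 in at least 1 vehicle and 1 dexamethasone mouse, and Retnlg, of neutrophils, in at least 1 vehicle mouse.

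Per kilobase of exon, the members differed widely in level. Elovl4 stood at 521 CPM per kilobase in vehicle mice, and the next highest were Alox12b at 49.2, Cyp4f39 at 43.9 and Smpd1 at 40.8. The others followed with Abhd5 at 20.6, Aloxe3 at 19.8, Ugcg at 15.8, Abca12 at 15.2, Cers3 at 14.8 and Pnpla1 at 14.8. The coefficient of variation between vehicle mice was 4.74% to 15.8%, so the order of the last 4 lies within the spread between mice. With dexamethasone Alox12b reached 127.5 CPM per kilobase and Elovl4 333, and with MC903 Ugcg was at 47.2.

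Likeness of pattern was measured as the root mean square difference of log2 CPM over the 26 libraries, each gene centred on its mean, where 0 means identical patterns. Among members, Pnpla1 and Abca12 were nearest (0.113), followed by Abhd5 and Smpd1 (0.139) and Aloxe3 and Pnpla1 (0.143). The farthest were Ugcg and Elovl4 (0.802). The nearest member to Cers3 was Abhd5 (0.2295), and the nearest to Ugcg and to Alox12b was Cers3 (0.257 and 0.258). Many other genes lay nearer: among all genes tested, Abhd5 ranked 362 by nearness to Cers3. Cers3 ranked 79 for Ugcg and 128 for Alox12b, and the nearest members to Elovl4 and Cyp4f39 ranked 788 and 2158. Abca12 ranked 2 for Pnpla1. The median difference from all genes was between 0.440 (Cyp4f39) and 0.778 (Ugcg). The nearest other gene was Gars1 for Cers3 (0.114), Urod for Elovl4 (0.106), Cdk2 for Cyp4f39 (0.126), Dennd11 for Pnpla1 (0.113) and Ube2h for Abhd5 (0.0748). It was Gsdma for Ugcg (0.152), Lnx1 for Abca12 (0.0937), Tmem123 for Smpd1 (0.109), Lgalsl for Alox12b (0.133) and Arhgap40 for Aloxe3 (0.125). Gsdma, a gasdermin of the skin, had 87.4 to 134.7 CPM in vehicle and 244.8 to 381.4 in MC903 mice, groups that did not overlap, as for Ugcg.

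Around the members, 6 lists of other lipid and barrier genes were read. Their counts stand against the shares of all genes tested, which were 34.5% higher and 35.7% lower for MC903 against vehicle, 18.6% and 19.4% for RGRN-305 and 23% and 23.3% for dexamethasone against MC903. On the epidermal scale, of the 20167 genes tested 2920 were higher and 12225 lower for MC903 against vehicle. Against MC903 they were 6462 and 2512 for RGRN-305 and 2470 and 6824 for dexamethasone. Between the drugs, 9243 genes were higher and 1189 lower with RGRN-305 than with dexamethasone. In the first steps, the synthesis of ceramides and very long chain fatty acids, 5 of 27 genes rose and 14 fell with MC903 against vehicle (median log2 fold change -0.213). RGRN-305 raised 15 and lowered 2 against MC903 (median 0.166), and dexamethasone raised 5 and lowered 10 (median -0.218). Medians over all genes in these comparisons were -0.022, 0.031 and 0.002. On the epidermal scale the counts were 4 higher and 20 lower, 20 and 2, and 2 and 16. Fa2h, which hydroxylates fatty acids of ceramides and is 1 of 2 genes shared with the sebaceous gland list, had 693 to 1045 CPM in vehicle and 256 to 412.5 in MC903 mice, and 407 to 610 with RGRN-305 and 64.9 to 127.6 with dexamethasone. It fell by 1.32 ± 0.133 (log2) with MC903 and by a further 1.89 ± 0.167 with dexamethasone (adjusted p = 1.41e-09 and 1.14e-09).

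Acacb, which makes malonyl-CoA, fell most in that list with MC903, by 2.16 on the log2 scale (adjusted p = 4.8e-13), and was higher with RGRN-305 than with MC903 (log2 0.70, adjusted p = 8.3e-05). The dehydratase Hacd2, of the elongation cycle, fell by 0.83 with MC903 (adjusted p = 2.62e-12). Elovl7, another elongase, and Sptlc2, a subunit of the enzyme that starts sphingolipid synthesis, rose (log2 1.09 and 0.98, adjusted p = 1.87e-11 and 5.19e-11), and Sptlc2 fell with RGRN-305 (log2 -0.41, adjusted p = 8.8e-05). The general ceramide synthase Cers2 passed in none of these comparisons (adjusted p = 0.219 for MC903 against vehicle), unlike Cers3, and Elovl1 was higher with both drugs than with MC903 (log2 0.36 and 0.41, adjusted p = 0.00019 and 0.000294), the rise with dexamethasone being lost on the epidermal scale (adjusted p = 0.0858).

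Of 14 genes for processing of glucosylceramide and sphingomyelin, 4 were higher and 5 lower with MC903 (2 and 10 on the epidermal scale), shares close to those of all genes. Smpd3, a neutral sphingomyelinase, rose by 1.19 (log2, adjusted p = 4.64e-11). The ceramidases Acer2 and Acer3 fell by 1.09 and 0.71 on the log2 scale (adjusted p = 2.48e-10 and 2.43e-10) and were both higher with RGRN-305 than with MC903 (log2 0.72 and 0.29, adjusted p = 1.21e-06 and 0.000438). Psap, the precursor of the activators of lysosomal sphingolipid hydrolases, was lower with both drugs than with MC903 (log2 -0.38 and -0.82).

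Of 12 genes for linoleate oxidation and late barrier enzymes, 10 were higher and 2 lower with MC903 (median log2 fold change 1.42, and 9 higher and 2 lower on the epidermal scale). Against MC903, RGRN-305 gave 2 higher and 6 lower (4 and 5 on the epidermal scale), and dexamethasone 1 higher and 4 lower (0 and 5). Sdr9c7, a dehydrogenase that acts after Alox12b and Aloxe3, had 84 to 101.5 CPM in vehicle and 168 to 215.5 in MC903 mice, and 111.4 to 156.9 with RGRN-305 and 165.3 to 229 with dexamethasone. It rose by 0.97 with MC903 (adjusted p = 2.56e-11) and fell by 0.39 with RGRN-305 (adjusted p = 9.68e-05). The transglutaminases Tgm1, Tgm3 and Tgm5, which cross-link the envelope, rose by 1.44, 1.82 and 1.44 and fell with RGRN-305 by 0.71, 0.59 and 0.77 (log2, adjusted p from 4.7e-08 to 0.000167 for the falls). None of these 4 passed for dexamethasone against MC903 (adjusted p from 0.262 to 0.929). The protease gene Asprv1 rose by 1.41 with MC903 (adjusted p = 4.42e-12) and did not pass with RGRN-305 (adjusted p = 0.157).

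Among 18 genes of lipid droplets, lamellar bodies and lipases, 3 were higher and 11 lower with MC903 (1 and 15 on the epidermal scale). RGRN-305 raised 9 and lowered 3 against MC903, and dexamethasone raised 7 and lowered 5. Pnpla2, the triglyceride lipase that Abhd5 activates, fell with MC903 (log2 -0.56, adjusted p = 2.09e-06) and rose with dexamethasone over MC903 (log2 0.81, adjusted p = 1.52e-07). Mgll, a monoglyceride lipase, went from 1681 CPM in vehicle to 919 in MC903 and 338 in dexamethasone mice on average (adjusted p = 8.53e-09 and 3.05e-10). Lipn, a lipase of keratinocytes, fell by 1.68 with MC903, Abhd4 by 0.86 and Vps33b, which is needed for lamellar bodies, by 0.70 (log2, adjusted p from 7.71e-11 to 3.17e-10).

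Of 19 cholesterol genes, 4 rose and 8 fell with MC903 (1 and 18 on the epidermal scale), and RGRN-305 raised 10 and lowered 2 against MC903. Sult2b1, which makes cholesterol sulphate, rose 2.2-fold in mean level with MC903, from 54.2 to 119.2 CPM (adjusted p = 1.4e-09), whereas Srebf1, Msmo1 and Lss fell by 1.05, 0.74 and 0.80 (log2). Dexamethasone gave 4 higher and 2 lower against MC903. Of 19 regulators, 11 were higher and 6 lower with MC903 (3 and 12 on the epidermal scale). Between the drugs, 10 were lower and 1 higher with RGRN-305 than with dexamethasone (17.8% and 17.6% of all genes), while on the epidermal scale none was lower and 6 were higher. Cebpb rose by 0.77 and Pparg fell by 0.88 with MC903 (adjusted p = 4.14e-09 and 1.05e-10), and Gata3 fell by 1.42 with dexamethasone against MC903 (adjusted p = 2.37e-09).

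**Figure D5:**
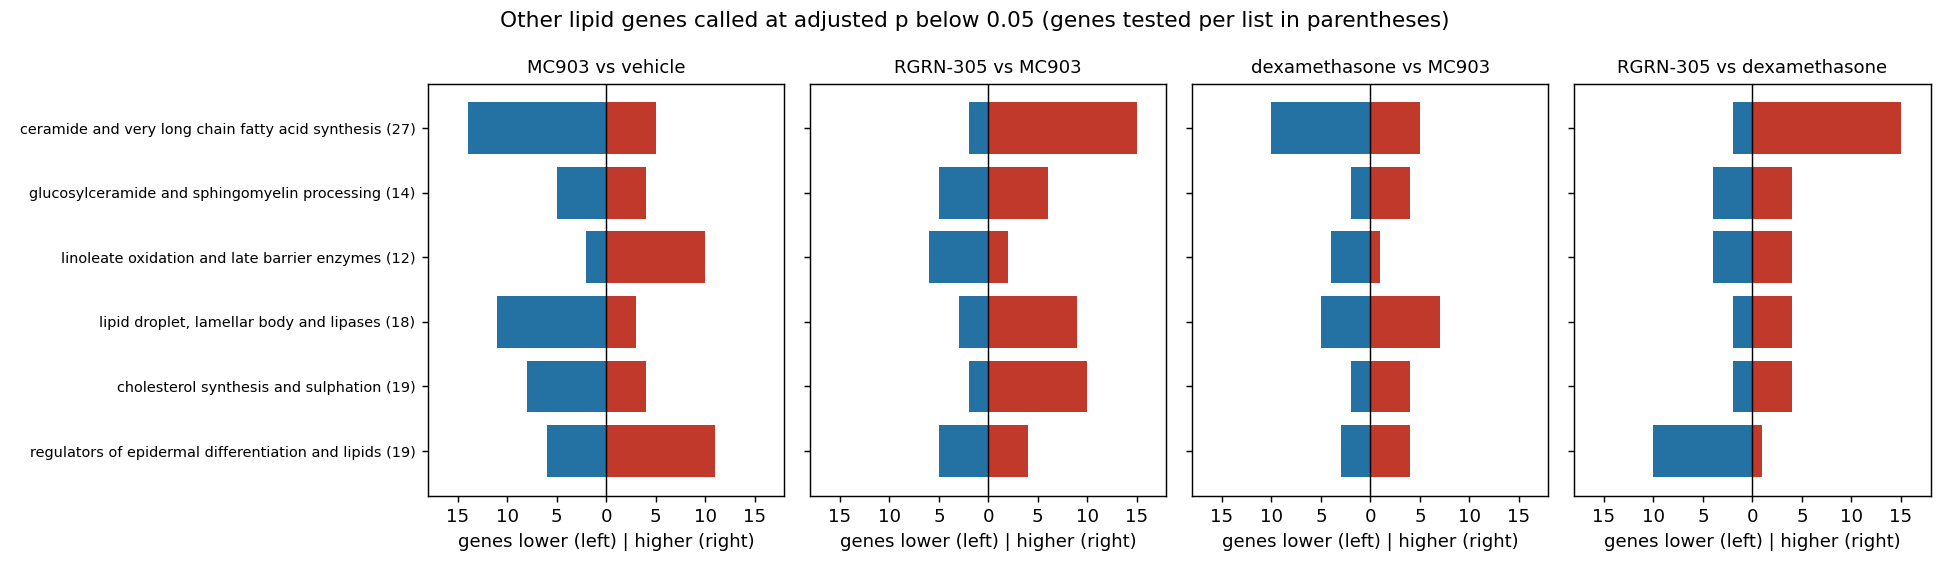
Number of genes called higher (red, to the right) and lower (blue, to the left) at an adjusted p below 0.05 (x axis) in 6 lists of other lipid and barrier genes (y axis, with the number tested), in 4 comparisons with TMM scaling. In the first list 14 of 27 genes are lower with MC903 and 15 are higher with RGRN-305 than with MC903.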

How the data were processed

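RNA of ear biopsies from 26 mice was measured, each mouse being 1 library. Per the paper, strand-specific libraries were aligned to GRCm39, and the authors counted unique, unambiguous reads per gene with Subread (v. 2.10.3). Whether counting used strand is not given in the sources used here. The table the authors deposited holds these raw counts, without normalization. Totals per library were 13695023 to 35130972, which limits genes of low count most. Symbols and positions came from the GENCODE annotation of GRCm39, and for 700 of 57010 identifiers (0.0631% of all counts) it gave no symbol.

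The counts were fitted by edgeR (v. 4.0.16, under R v. 4.3.3): filterByExpr (minimum count 10, total 15), TMM scaling, and 1 robust quasi-likelihood fit with 1 mean per group. P-values were adjusted by Benjamini-Hochberg over 20167 genes within each of 6 comparisons. A log2 fold change beyond 1.5 was a further limit. Log2 CPM had a prior count of 2. Groups and mouse numbers came from the sample titles.

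The members and lists were chosen with earlier results of these data known. Named were all members, up to 4 genes per list with the smallest p, 5 genes of known role (Pnpla2, Sdr9c7, Fa2h, Cers2 and Elovl1) and the gene most like each member. Other genes that this rule names are not reported here. Intervals are at 95%.

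Alternatives were DESeq2 (v. 1.42.0), its size factors in edgeR, other filters, fits of 2 groups only, a block for mouse number, scaling to 10 keratinocyte genes, raw library sizes, and mice left out. The procedure was tested on simulated data. Sequences and plots were made in Python (v. 3.11.15) with matplotlib (v. 3.10.9).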

Additional observations from a re-analysis of the deposited data

Results flagged for a closer look

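In 40 sets of values (10 genes in 4 groups), 3 held a mouse whose gap to its neighbour was large against the range of its group by Dixon's criterion, and chance alone gives about 1 in 20 groups. Elovl4 in the MC903 group was highest in mouse 7, at 1645 CPM against 1463 in the next mouse, a gap of 0.537 of the range. MC903 mouse 7 had the second lowest total count. Elovl4 in the dexamethasone group was highest in mouse 2, at 1153 CPM against 970, a gap of 0.876 of the range, and this mouse was still below all mice of the other groups. Smpd1 in the RGRN-305 group was lowest in mouse 7, at 139 CPM against 169, a gap of 0.584 of the range.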

How the results depend on the processing

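Each of the 60 log2 fold changes of the members (10 genes, 6 comparisons) was recomputed under each alternative fit, and direction and call stayed for 58 with DESeq2, 57 with its size factors, 58 without the filter, 60 with a mean count above 25, 58 with only the 2 groups compared and 58 without the 2 libraries of lowest total count (vehicle 2 and MC903 7). The count of members higher with RGRN-305 than with MC903, 2 in the report, was 0 with DESeq2, its size factors, no filter, or without those libraries, and 1 with only the 2 groups. The cause was not tested.

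Scaling to the 10 keratinocyte genes moved most: 26 of 60 kept direction and call, 12 lost and 6 gained a call, and 16 changed sign. Members higher and lower became 3 and 5 for MC903 against vehicle, 4 and 3 for RGRN-305 and 4 and 2 for dexamethasone against MC903, and 2 and 2 for RGRN-305 against dexamethasone. Against vehicle they became 2 and 2 with RGRN-305 and 4 and 2 with dexamethasone. Of all 20167 genes, that scaling gave 2920 higher and 12225 lower for MC903 against vehicle. Against MC903 it gave 6462 and 2512 for RGRN-305 and 2470 and 6824 for dexamethasone, and 9243 and 1189 for RGRN-305 against dexamethasone. Against vehicle it gave 2309 and 10607 for RGRN-305 and 1498 and 14008 for dexamethasone. The sign turned for MC903 against vehicle in Pnpla1 (-0.296), Abca12 (-0.261), Smpd1 (-0.064) and Aloxe3 (-0.383), and for RGRN-305 against MC903 in Cyp4f39 (0.069), Abhd5 (0.035) and Smpd1 (0.101). It turned for dexamethasone against MC903 in Cers3 (-0.174), Abhd5 (-0.159) and Ugcg (-0.094), and between the drugs in Abhd5 (0.194) and Smpd1 (0.06). Against vehicle it turned in Aloxe3 with RGRN-305 (-0.021), and in Abhd5 (-0.033), Smpd1 (-0.022) and Aloxe3 (-0.014) with dexamethasone. Of these, Abca12 for MC903 against vehicle was called on both scales, with opposite signs, and Pnpla1 and Aloxe3 were called lower on the epidermal scale only.

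A fold limit of 1.5 (log2) left 1 member higher and 0 lower for MC903 and for dexamethasone against vehicle, and 0 and 0 in the other comparisons. For MC903 and for dexamethasone against vehicle, 15% and 9.68% of all genes passed in either direction. The shares were 3.68% for RGRN-305 and 8.48% for dexamethasone against MC903. They were 3.78% between the drugs and 8% for RGRN-305 against vehicle. With raw library sizes 10 of 40 group means moved by more than their SD. The order of the vehicle and MC903 means then turned for Pnpla1, Abca12 and Aloxe3. Pnpla1 had 81.09 CPM in vehicle and 76.96 in MC903 mice, Abca12 255.4 and 248.9, and Aloxe3 143.5 and 128.9. With TMM scaling the MC903 mean was the higher one for each of these. For the other members the order stayed.

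With single mice left out, 1 to 2 members were lower with MC903 than with vehicle, and 0 to 3 were higher with RGRN-305 than with MC903. In that comparison Pnpla1 lost its call in 12 and Aloxe3 in 19 of 26 runs. Cers3 for dexamethasone against MC903 ranged from -0.036 to 0.072 and Elovl4 for RGRN-305 against vehicle from -0.108 to 0.003.

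The mouse numbers showed no sign of pairing the samples. Over 32 pairs of mice with the same number the deviations from group means correlated by -0.342 to 0.286 (median -0.0585). Over 216 pairs with different numbers they correlated by -0.361 to 0.431 (median 0.0103). With the mouse number as a replicate block, 56 of 60 kept direction and call, and 1 member was higher with RGRN-305 than with MC903. The calls lost under the block were Smpd1 for dexamethasone against MC903 (0.161) and Aloxe3 for RGRN-305 against MC903 (0.218) and against dexamethasone (-0.276), and Pnpla1 for MC903 against vehicle passed (0.214).

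Dexamethasone had only 4 mice, so its differences are the least certain, and no drug was given without MC903.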

Other observations

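Values of 4 other lipoxygenases, chosen here after their values were seen, follow. Alox8, a lipoxygenase of stimulated mouse skin, had 0.782 to 1.76 CPM in vehicle mice and 101.6 to 370 CPM in MC903 mice, a log2 rise of 7.58 ± 0.58 (adjusted p = 1.04e-10). It fell with RGRN-305, to 8.43 to 54.6 CPM, and with dexamethasone, to 9.04 to 45.9 CPM (log2 -2.96 and -3.10 against MC903, adjusted p = 2.63e-06 and 3.69e-05), with no overlap between the MC903 mice and either group.

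Alox12e, another epidermal lipoxygenase, was highest with RGRN-305, at 575 to 1085 CPM. It had 143 to 447 CPM in MC903, 136 to 203 CPM in vehicle and 93.0 to 182 CPM in dexamethasone mice. It rose with RGRN-305 over MC903 by 1.18 ± 0.194 and fell with dexamethasone by 1.43 ± 0.251 on the log2 scale (adjusted p = 3.63e-05 and 6.23e-05), so the drugs stood 2.60 apart (adjusted p = 7.05e-08). The RGRN-305 mice overlapped no other group, and the MC903 mice overlapped both the vehicle and the dexamethasone mice. Alox15 rose from 0.0662 to 0.707 CPM in vehicle to 3.31 to 7.07 CPM in MC903 mice (log2 3.19 ± 0.393, adjusted p = 5.07e-08) and fell with dexamethasone, to at most 0.820 CPM (log2 -3.75 against MC903, adjusted p = 8.57e-07). RGRN-305 mice had 1.27 to 3.70 CPM of Alox15, which did not pass against MC903 (adjusted p = 0.112). Alox12 was lower with MC903 than with vehicle (log2 -0.38, adjusted p = 0.00707), higher with RGRN-305 than with MC903 (log2 0.72, adjusted p = 1.27e-05) and did not pass for dexamethasone (log2 0.10, adjusted p = 0.566).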
